A study of Homo sapiens with 4 samples.

Results

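The core pluripotency genes are the transcription factors and RNA-binding proteins whose expression marks human embryonic stem cells and holds them undifferentiated. The set was drawn up by name as 10 genes, POU5F1, NANOG, SOX2, LIN28A, LIN28B, DPPA2, DPPA4, UTF1, ZFP42 and L1TD1, and all array probes annotated with those symbols were taken. The annotation used here gave 10 probes for 8 of the 10 genes, out of 18348 genes named on the array. DPPA4 and ZFP42 were not analysed here. One of the probes was not above background, and each of the 8 genes kept at least 1 probe, so 8 of the 11030 genes tested belonged to the set.

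Illumina bead arrays read the transcripts of H9 cells, a widely used human embryonic stem cell line, kept in a serum replacement medium with basic fibroblast growth factor (bFGF). The comparison set cells before gamma radiation (0 h, n = 2 arrays) against cells 24 h after gamma radiation (n = 2 arrays), in a series whose title concerns low dose irradiation and gene targeting. The labels state no radiation dose and do not say whether replicates came from separate cultures, so the p-values cover the spread among these arrays alone, and it may be technical. An unirradiated sample at 24 h was not analysed here, so irradiation and a day in culture cannot be told apart. All 4 arrays shared 1 slide, where each condition held its own positions, and the effects of position and condition cannot be told apart. In bulk RNA, fewer cells of a type and less RNA per cell give the same reading.

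POU5F1 (also called OCT4) and SOX2 bind DNA together at composite sites, switch on NANOG and sustain their own genes. NANOG binds many of the same enhancers, and the circuit of these factors keeps lineage genes off. In human embryonic stem cells the circuit also drives companion genes such as LIN28A, L1TD1, DPPA2 and UTF1, and the loss of these transcripts accompanies differentiation.

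None of the 8 measured genes passed the test between 0 h and 24 h (limma, adjusted p under 0.05 over all genes tested), against 2.28% of all genes tested. The values nearest to the threshold were those of UTF1 and DPPA2, which lay higher at 24 h by 0.76 ± 0.12 and 0.71 ± 0.12 (log2 change ± standard error, SE). POU5F1 and NANOG lay slightly higher, and SOX2, LIN28A, LIN28B and L1TD1 lay lower. At an unadjusted p under 0.05 there were 2 of the 8, UTF1 and DPPA2, against 30.3% of all genes. The 2 arrays of one condition lay entirely above the 2 of the other for 6 of the 8 genes (75%), against 61.6% of all genes tested. With 4 genes above 0 and 4 below, the median change was 0.052, beside -0.0050 over all genes. Under the processing alternatives, 0 to 4 of the 8 passed, where 0 to 2522 of all genes tested did. The 4 came with the setting that called 2522 of 11030 genes.

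**Figure D1:**
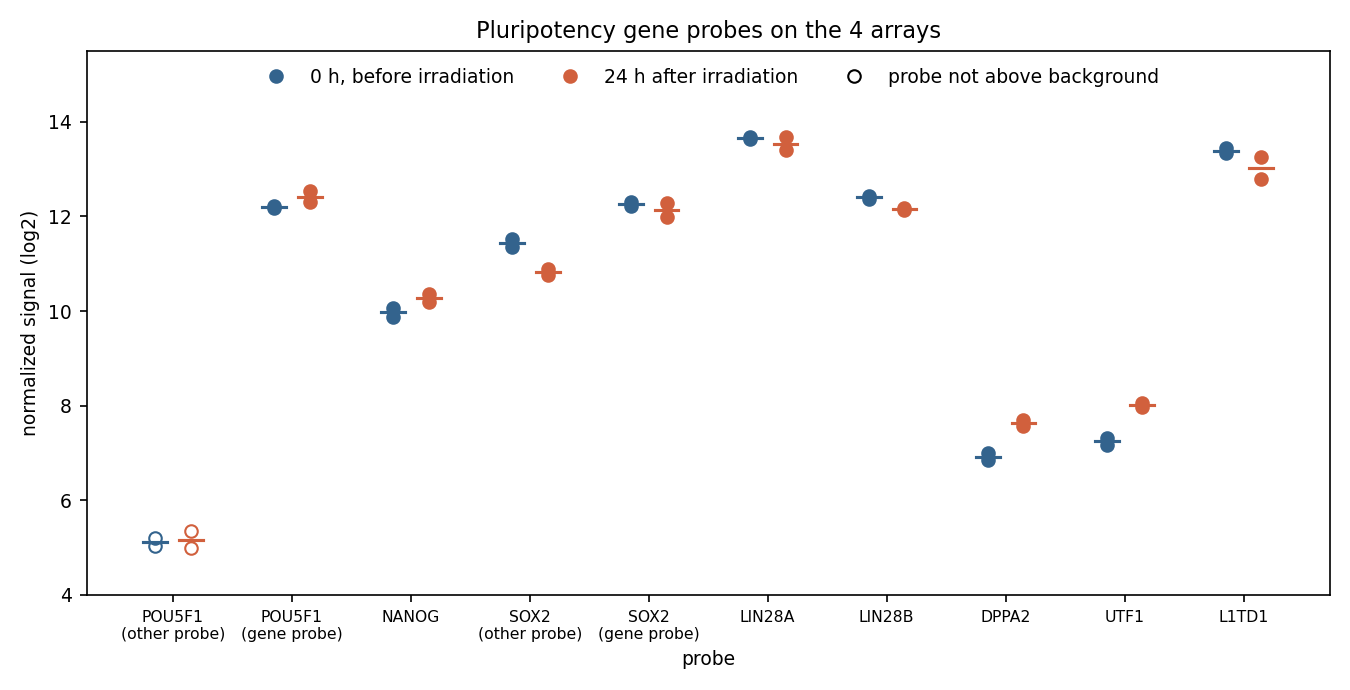
Normalized log2 signal (vertical axis) of each of the 10 probes of the pluripotency genes, with 1 point per array and a line at the mean of each condition. Open points mark the POU5F1 probe that was not above background. UTF1 and DPPA2 show the widest gaps upward and 1 of the SOX2 probes the widest gap downward; heights of different probes are not comparable.

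Deposited bead intensities differed between the conditions before any normalization. Medians of the 2 earlier arrays were 158.4 and 175.2, those of the later ones 143.8 and 134.7, and the ratio of 24 h to 0 h was 0.835 for the medians, 0.729 for the 75th percentiles and 0.675 for the 99th percentiles. The changes given here follow background correction and quantile normalization, and so are relative to the rest of each array. Between 19705 and 20443 of 47217 probes per array were detected, that is, had a detection p under 0.05. The number of arrays limits the precision, and signal levels of different probes are not comparable as amounts of transcript.

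POU5F1 is the homeodomain factor on which the undifferentiated state depends. Its probe matched to transcript NM_002701, the variant that encodes the pluripotency isoform OCT4A, read 12.18 and 12.21 at 0 h and 12.30 and 12.54 at 24 h (normalized log2 signal). Both arrays at 24 h lay above both at 0 h, by a margin smaller than the distance between the 24 h arrays. The change was 0.22 ± 0.13 SE (95% interval -0.12 to 0.56; limma adjusted p = 0.309). In deposited intensity this probe went from 5515 and 6402 to 4438 and 4119, a ratio of 0.718, close to that of the 75th percentiles of the arrays.

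The second POU5F1 probe is matched to NM_203289, a variant of the OCT4B kind, which lacks the pluripotency function of OCT4A. Detection p before irradiation was 0.204 and 0.138, and afterwards 0.0805 and 0.232. It was therefore not well above background on any of the 4 arrays and was not tested. Processed pseudogenes of POU5F1 and NANOG exist, and probe sequences were not used here, so whether a probe also reads a pseudogene was not tested.

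NANOG, a homeodomain factor that guards against differentiation, read 10.07 and 9.88 at 0 h and 10.37 and 10.20 at 24 h. The conditions did not overlap, but the gap between the nearest arrays was small. The change was 0.31 ± 0.13 SE (95% interval -0.040 to 0.66; limma adjusted p = 0.2). In deposited intensity the gene went from 1359 and 1428 to 1229 and 861.5, the lowest being 24 h replicate 2.

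Promoter sequences are shown for NANOG and for the genes with the largest changes, UTF1 and DPPA2. RefSeq (GRCh38.p14) gave promoters of 8 of the 10 genes, 250 bases before to 50 after a start site, with 9 entries because LIN28B has 2. POU5F1 and LIN28A had no entry. The NANOG promoter lies on the plus strand at chr12:7789152-7789451, and capitals mark its match to the composite octamer and SOX motif TTTGCATNACAA, searched on both strands.
NANOG: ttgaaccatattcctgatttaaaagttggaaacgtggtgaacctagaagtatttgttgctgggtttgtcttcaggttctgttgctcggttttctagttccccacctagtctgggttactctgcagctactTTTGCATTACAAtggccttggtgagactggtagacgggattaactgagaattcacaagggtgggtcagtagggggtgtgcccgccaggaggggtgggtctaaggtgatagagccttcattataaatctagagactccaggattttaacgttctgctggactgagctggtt
The UTF1 promoter lies on the plus strand at chr10:133229967-133230266, and capitals mark GC boxes, GGGCGG on either strand.
UTF1: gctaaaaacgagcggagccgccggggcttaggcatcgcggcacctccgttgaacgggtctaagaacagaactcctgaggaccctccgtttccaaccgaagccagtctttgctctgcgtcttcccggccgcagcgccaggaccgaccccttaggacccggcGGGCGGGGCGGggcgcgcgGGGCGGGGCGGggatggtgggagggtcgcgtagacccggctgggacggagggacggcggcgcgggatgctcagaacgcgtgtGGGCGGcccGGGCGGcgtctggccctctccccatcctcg
The DPPA2 promoter lies on the minus strand at chr3:109316468-109316767, and capitals mark the SOX core ACAAAG, here read on the opposite strand.
DPPA2: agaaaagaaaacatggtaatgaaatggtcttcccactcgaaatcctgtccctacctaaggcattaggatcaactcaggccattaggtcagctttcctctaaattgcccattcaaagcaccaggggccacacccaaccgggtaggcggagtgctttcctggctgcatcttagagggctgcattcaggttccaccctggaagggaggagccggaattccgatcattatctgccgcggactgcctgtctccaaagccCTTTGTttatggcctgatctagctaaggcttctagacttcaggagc

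The composite motif was found in 11 of 35116 promoters (0.0313%), and NANOG was the sole entry with it among the 9 of the pluripotency genes. Its match spans positions -120 to -109 from the start site and contains the shorter octamer motif TTTGCAT, and the SOX core ACAATG overlaps its end. The shorter motif alone occurred in 4.46% of promoters, among them those of NANOG and SOX2. The SOX core ACAAAG occurred in 16.1% of promoters and in 5 of the 9 entries, those of L1TD1, DPPA2, SOX2, ZFP42 and LIN28B. GC boxes occurred in 45% of promoters and in 6 of the 9 entries, with 6 matches in UTF1, some of which share a base, in a promoter of 71.7% G and C. These matches describe the letters in the windows; whether a factor bound there was not measured.

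SOX2, the HMG-box partner of POU5F1, was read by 2 probes matched to the same transcript, NM_003106, and they differed. The brighter probe, which stood for the gene, read 12.30 and 12.22 at 0 h and 12.29 and 11.99 at 24 h. The conditions overlapped on it, and its change was -0.12 ± 0.14 SE (95% interval -0.50 to 0.27; limma adjusted p = 0.629), with a value of 0.034 without 24 h replicate 2. The dimmer SOX2 probe read 11.52 and 11.35 at 0 h and 10.76 and 10.89 at 24 h, both later arrays lying well below both earlier ones.

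In a limma fit over all 20361 kept probes, the dimmer SOX2 probe changed by -0.61 ± 0.13 SE (95% interval -0.96 to -0.25, adjusted p = 0.0977), which did not pass. That fit called 0% of probes, with a smallest adjusted p of 0.0801 and 5235 probes at an unadjusted p under 0.05. Within each array, the dimmer probe minus the brighter (log2) came to -0.78 and -0.86 before irradiation, and to -1.53 and -1.10 after it. The gap between the SOX2 probes was thus wider on both arrays at 24 h, and their changes differed by 0.49 in size, so the array gives no single value for SOX2. With the probes averaged, the SOX2 change was -0.36 (limma adjusted p = 0.12).

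**Figure D2:**
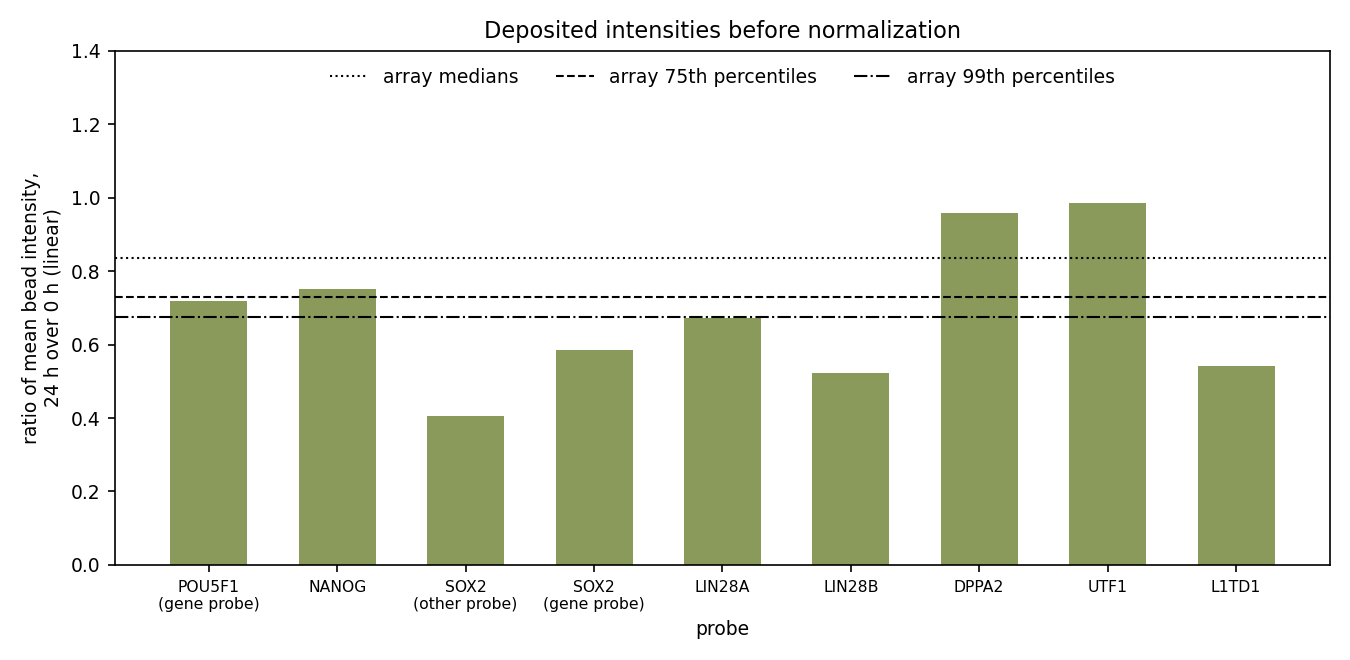
Ratio of the mean deposited bead intensity at 24 h to that at 0 h (linear scale) for the 9 probes above background, before normalization, with lines for the same ratio of the array medians (0.835), 75th percentiles (0.729) and 99th percentiles (0.675). UTF1 (0.984) and DPPA2 (0.958), the dimmest of these probes, stand above all 3 lines. The intensities include background. The SOX2 probes (0.405 and 0.586), LIN28B (0.522), L1TD1 (0.541) and, by a small margin, LIN28A (0.672) stand below them.

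LIN28A and LIN28B are RNA-binding paralogs that block maturation of the let-7 microRNAs, and LIN28A is among the factors used to reprogram human somatic cells. LIN28A read 13.63 and 13.68 at 0 h and 13.40 and 13.67 at 24 h. The conditions overlapped, since 24 h replicate 2 lay between the 0 h arrays. The change was -0.12 ± 0.14 SE (95% interval -0.48 to 0.24; limma adjusted p = 0.595), a direction that turned to 0.041 when arrays were scaled to the 75th percentile and to 0.016 without 24 h replicate 1.

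LIN28B read 12.37 and 12.43 at 0 h and 12.13 and 12.18 at 24 h. The replicates lay close together and the conditions did not overlap. The change was -0.25 ± 0.10 SE (95% interval -0.52 to 0.025; limma adjusted p = 0.193). The deposited intensity of LIN28B went from 6241 and 7396 to 3925 and 3196, a ratio of 0.522 beside 0.672 for LIN28A.

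L1TD1, an RNA-binding protein derived from a LINE-1 retrotransposon and found with LIN28A in human embryonic stem cells, read 13.45 and 13.34 at 0 h and 13.26 and 12.79 at 24 h. The 24 h arrays lay below both 0 h arrays and were far apart, with an SD of 0.33 (n = 2) against 0.076 at 0 h (n = 2). The change was -0.37 ± 0.19 SE (95% interval -0.87 to 0.14; limma adjusted p = 0.269). It was -0.13 without 24 h replicate 2 and -0.60 without 24 h replicate 1, so the size rests on which 24 h array is read. The deposited intensities of L1TD1 show the same split, with 12617 and 13058 at 0 h and 8867 and 5013 at 24 h.

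DPPA2, a DNA-binding protein of the SAP domain family that in mouse acts with DPPA4 on the chromatin of developmental genes, read 6.999 and 6.84 at 0 h and 7.57 and 7.69 at 24 h. The conditions lay far apart beside the spread of the replicates. The change was 0.71 ± 0.12 SE, a fold of 1.64 (95% interval 0.39 to 1.03 on the log2 scale; limma adjusted p = 0.0547). The deposited intensities overlapped, at 265.3 and 285.7 against 279.2 and 248.5, a ratio of 0.958.

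UTF1, a chromatin-associated repressor which in mouse is a direct target of POU5F1 and SOX2, read 7.32 and 7.16 at 0 h and 8.05 and 7.97 at 24 h. Both later arrays lay above both earlier ones, by several times the distance between replicates. The change was 0.76 ± 0.12 SE, a fold of 1.70 (95% interval 0.46 to 1.07 on the log2 scale; limma adjusted p = 0.0516). In deposited intensity the conditions overlapped, with 300.2 and 324.5 before and 339.8 and 275.1 after irradiation, a ratio of 0.984.

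UTF1 and DPPA2 thus held their deposited intensity while the arrays as a whole dimmed, and their higher normalized values are relative to those arrays. They were also the dimmest of the 8 genes. With all genes tested split into 5 equal groups by normalized level, both fell in group 2 from the dim end. NANOG fell in group 4 and the other 5 in group 5. Deposited intensities include background, and its part in the ratios of these dim probes was not tested. Without background correction their changes were 0.46 and 0.39 on the log2 scale, with limma adjusted p of 0.0088 and 0.0174, and both then passed. Over 14 processing alternatives the change was above 0 every time for both, in a range of 0.46 to 0.84 for UTF1 and 0.39 to 0.79 for DPPA2. UTF1 passed under 6 of them and DPPA2 under 5. Where both passed, 721 to 2522 of all genes tested passed as well, and 388 did where UTF1 alone passed. The main processing called 251 genes. Limma adjusted p ranged from 0.00571 to 0.238 for UTF1 and from 0.0127 to 0.24 for DPPA2.

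**Figure D3:**
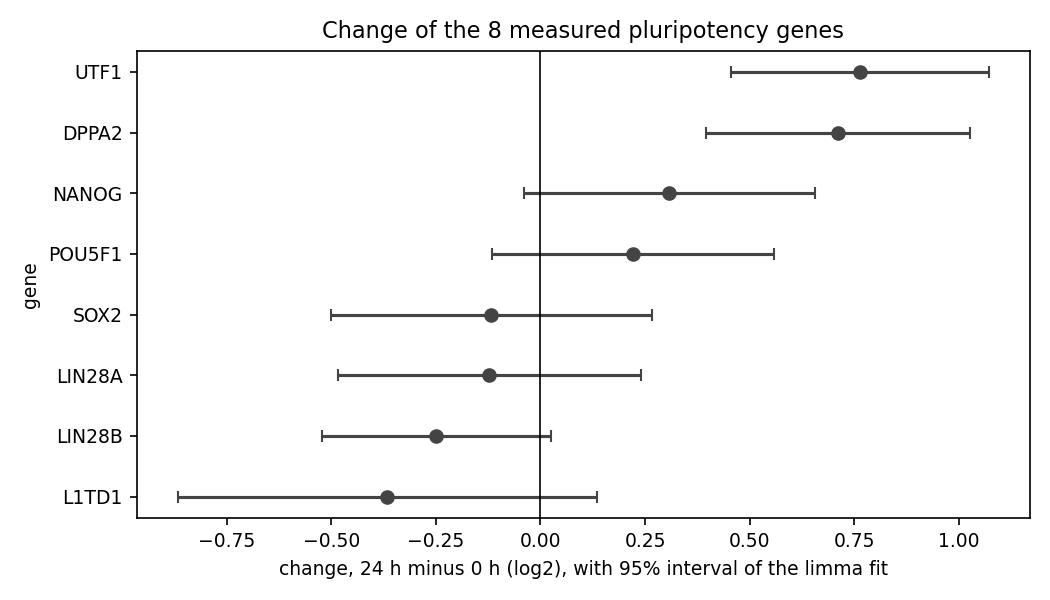
Log2 change, 24 h minus 0 h, of the 8 measured genes, with the 95% interval of the limma fit as horizontal bars. The intervals of UTF1 and DPPA2 lie above 0 and the other 6 cross 0, though no gene passed after adjustment over all genes.

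**Figure D4:**
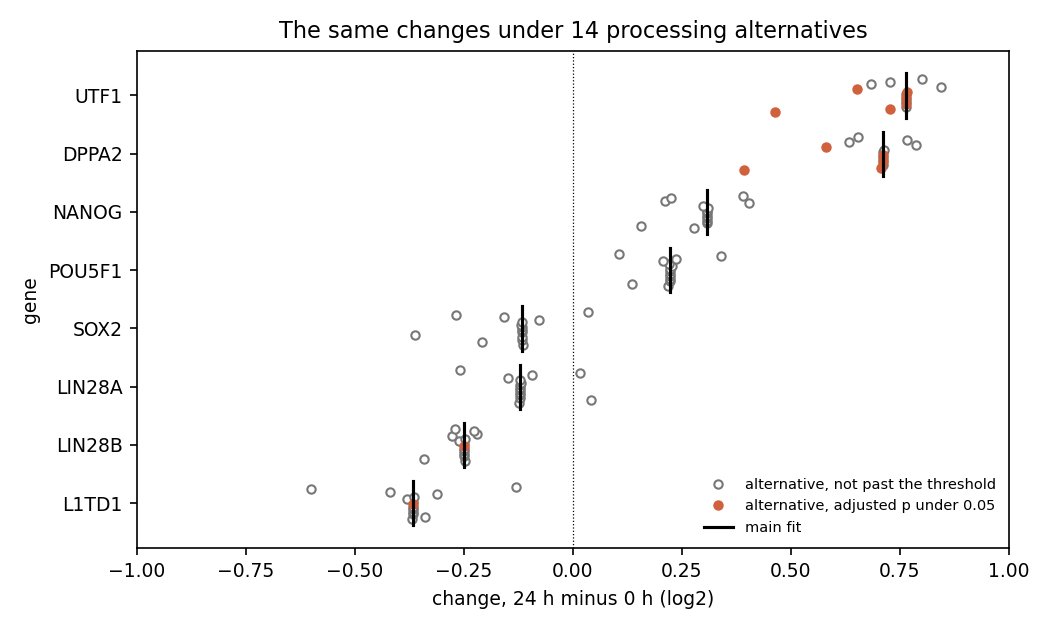
Log2 change, 24 h minus 0 h, of each gene in the main fit (black line) and under 14 processing alternatives (points, filled where adjusted p was under 0.05). POU5F1, NANOG, LIN28B, DPPA2, UTF1 and L1TD1 kept their direction throughout, while SOX2 crossed 0 once and LIN28A crossed it under 2 alternatives.

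The wider pluripotency network of primed human cells was read through 30 listed genes, of which 26 were named on the array and 25 tested. None passed (limma, adjusted p under 0.05), against 2.28% of all genes tested, and 5 of the 25 had an unadjusted p under 0.05, against 30.3% of all genes. Below 0 lay 19 of the 25, against 50.6% of all genes, with a median of -0.14 beside -0.0050 over all genes. The lowest were GDF3, a TGF-beta family ligand (-0.94 ± 0.17 SE, adjusted p = 0.0598), and DNMT3B, a de novo DNA methyltransferase (-0.72 ± 0.11, adjusted p = 0.051). DNMT3B read 13.12 and 13.14 at 0 h and 12.46 and 12.37 at 24 h, with no overlap. The highest were the neuropeptide GAL (0.40 ± 0.11, adjusted p = 0.098) and VRTN (0.27 ± 0.11, adjusted p = 0.195).

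Genes of the naive or ground state were mostly dim, with 13 of 16 named and 8 tested. None passed (2.28% of all genes), 3 of 8 had an unadjusted p under 0.05 (30.3% of all genes) and 6 of 8 lay below 0 (50.6% of all genes). Their median was -0.15, beside -0.0050 over all genes. TCL1B, an AKT co-activator, stood at 0.61 ± 0.11 (limma adjusted p = 0.0622) and DPPA3, a maternal chromatin factor, at 0.44 ± 0.18 (adjusted p = 0.186). DPPA5 stood at -0.67 ± 0.13 (adjusted p = 0.0653) and the nuclear receptor NR5A2 at -0.52 ± 0.10 (adjusted p = 0.0649).

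Around LIN28 and let-7, 16 of 18 listed genes were named and all 16 were tested. None passed (2.28% of all genes), 7 of 16 had an unadjusted p under 0.05 (30.3% of all genes) and 12 of 16 lay below 0 (50.6% of all genes). The median of the 16 was -0.30, beside -0.0050 over all genes. DGCR8, the partner of DROSHA in microRNA processing, stood at -0.84 ± 0.12 (limma adjusted p = 0.0505), reading 9.38 and 9.22 at 0 h and 8.52 and 8.40 at 24 h. The let-7 target HMGA2 did not pass (adjusted p = 0.065); on the later arrays it was not well above background, which gives a bound of at least 1.39-fold lower. DIS3L2, the nuclease that degrades let-7 precursors tailed through LIN28, stood at 0.82 ± 0.18 (adjusted p = 0.0711), and ARID3B at 0.30 ± 0.13 (adjusted p = 0.206).

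Partners and relatives of the core factors were read through 34 listed genes, of which 28 were named and 20 tested. None passed (2.28% of all genes), 9 of 20 had an unadjusted p under 0.05 (30.3% of all genes) and 16 of 20 lay below 0 (50.6% of all genes). The median of these was -0.25, beside -0.0050 over all genes. The relatives SOX3 (0.89 ± 0.15, limma adjusted p = 0.0559) and POU3F1 (0.68 ± 0.11, adjusted p = 0.0525), both factors of neural progenitors, stood highest. SOX11, another SOX factor of the nervous system, stood at -0.51 ± 0.13 (adjusted p = 0.0892), and CTBP2, a corepressor, at -0.51 ± 0.22 (adjusted p = 0.201). The pseudogene DPPA2P3 and the NANOG relative NANOGNB had 2 probes and 1 probe, detected on 0 of the 4 arrays.

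**Figure D5:**
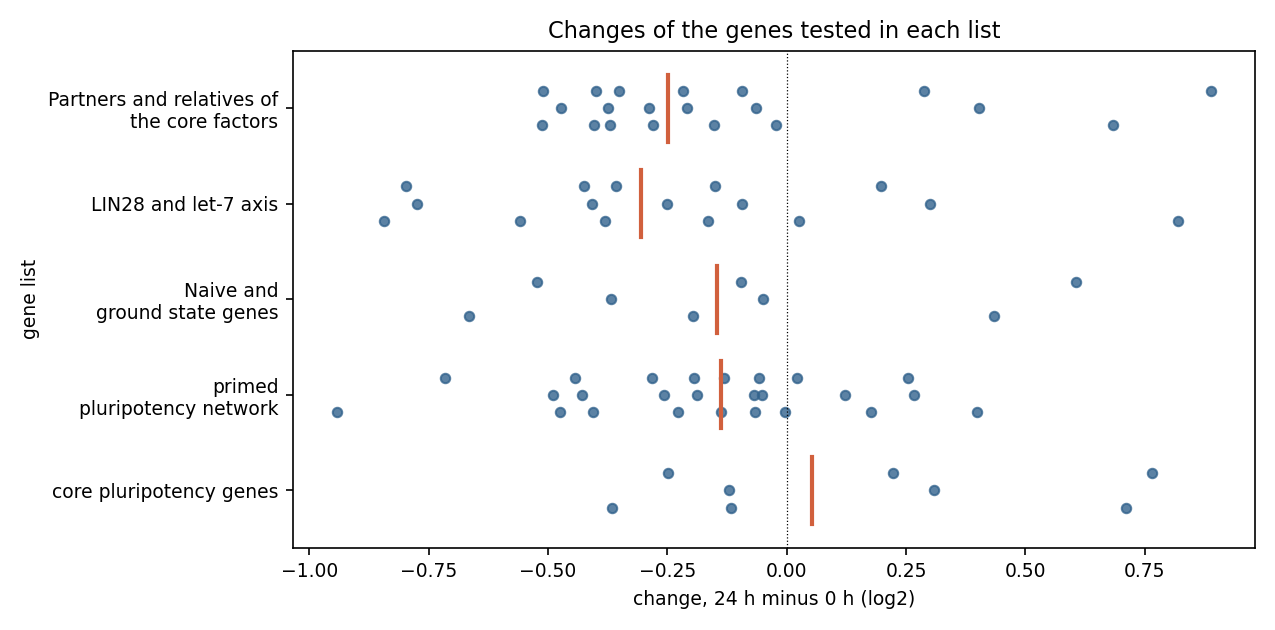
Log2 change, 24 h minus 0 h, of each tested gene (points; vertical offsets only separate them) in the core set and in 4 wider lists, with the median as a vertical bar. The medians of the 4 wider lists lie between -0.30 and -0.14 and that of the core set at 0.052.

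The labelled cell type was checked against markers. The 3 further markers of pluripotent cells on the array, DNMT3B, SALL4 and PODXL, were detected on all 4 arrays, with a summed background-corrected signal of 21052 and 20633 at 0 h and 16621 and 15868 at 24 h. DNMT3B had the largest change of the 3, at -0.72 ± 0.11 (limma adjusted p = 0.051). SALL4 stood at -0.19 ± 0.13 and PODXL at -0.13 ± 0.11 (limma adjusted p = 0.393 and 0.459).

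Other lineages were read through short marker lists, of which 5 genes passed the filter. Of these, 0 passed the test (limma, adjusted p under 0.05), against 2.28% of all genes. At an unadjusted p under 0.05 there were 2 of the 5, KDR and EOMES, against 30.3% of all genes. In mesoderm, TBXT, MIXL1, MESP1 and TBX6 (4 of 6 named) were detected on no array. The receptor KDR stood at 0.81 ± 0.16 (adjusted p = 0.065), and EOMES, detected on 1 of the later arrays, at -0.92 ± 0.22 (adjusted p = 0.0815). The mesoderm list summed to 187.4 and 176.5 before irradiation and 213.3 and 234.7 after it. In neurectoderm, LHX2 and SIX3 (2 of 5 named) were detected on no array. PAX6 and SOX1 were detected on too few arrays to be tested. The intermediate filament NES, which was detected on all 4 arrays, stood at -0.17 ± 0.11 (limma adjusted p = 0.34). The neurectoderm sums were 2521 and 2358 before and 2113 and 2207 after.

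In endoderm, SOX17, GATA4 and GATA6 (3 of 6 named) were detected on no array. FOXA2 and CXCR4 were detected on too few arrays to be tested. AFP stood at -0.29 ± 0.18 (limma adjusted p = 0.331). The endoderm sums were 222.8 and 287.5 before and 229.7 and 228.9 after. In trophoblast, CDX2, GATA3 and HAND1 (3 of 6 named) were detected on no array. TFAP2A and CGA were detected on too few arrays to be tested. The keratin KRT7, detected on 1 of the earlier arrays, stood at 0.63 ± 0.30 (limma adjusted p = 0.236). The trophoblast sums were 91.54 and 127.7 before and 186.1 and 127 after. Of the 6 trophoblast markers, 0 were detected on both arrays at 0 h and 1 on both arrays at 24 h. The sums of all these lineages include the markers that were not detected, and the part of background in the sums was not tested. The part of the lineage markers in the values of the pluripotency genes was not tested.

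Those fibroblast markers that could be tested lay higher at 24 h. Of 9 named, 6 were tested and all 6 lay above 0, while 50.6% of all genes lay below it. COL3A1, DCN and LUM were detected on too few arrays to be tested. ACTA2, COL1A1, TAGLN and VIM were called higher, which is 4 of 6 against 2.28% of all genes called (limma, adjusted p under 0.05). Their adjusted p ran from 0.0447 to 0.0498, close to the threshold, and the smallest of any gene was 0.0447. The changes of the fibroblast markers were not followed through the processing alternatives. With no filter, in the fit over all kept probes and with the replicate number as a block, 0 of all genes passed. ACTA2, COL1A1, TAGLN and VIM therefore did not pass under those alternatives. ACTA2, smooth muscle actin, changed by 1.504 ± 0.114. Outside the list, the muscle actins ACTA1 (0.85 ± 0.10) and ACTG2 (1.005 ± 0.126) were also called higher (limma adjusted p = 0.0456 and 0.0465). The muscle actin ACTC1 was not called (-0.067 ± 0.10, limma adjusted p = 0.705). The lowest of the 6 were the collagen chain COL1A2 (0.33 ± 0.11, adjusted p = 0.136) and the surface protein THY1 (0.30 ± 0.10, adjusted p = 0.137), which did not pass. The 9 markers summed to a signal of 11812 and 11948 before irradiation and 20197 and 19742 after it, while the fibroblast matrix genes COL3A1 and LUM were detected on no array. Several of these genes are also expressed by embryonic stem cells, and the part of the fibroblast markers in the values of the pluripotency genes was not tested.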

How the data were processed

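Per the file headers, the table deposited by the authors gives, for each of the 4 arrays, linear bead intensities averaged per probe, not normalized, with a detection p-value. A second table deposited by the authors holds processed log2 values for 34466 of the 47217 probes, and limma is named per the submitters' processing notes, without version or steps.

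Background correction and quantile normalization used neqc (offset 16) of limma 3.58.1 in R 4.3.3. Each column of the authors' log2 table differed by at most 0.0563 from the neqc values of the same array. The log2 scale and quantile normalization therefore carry over. Medians were 5.35 to 5.36, and the rule by which the authors chose the probes they kept stays unknown. Probes with a detection p under 0.05 on at least 2 of 4 arrays were kept (20361), and named through the platform annotation (26358 probes with 1 symbol, 3 with several; 26325 found in RefSeq, with 0 symbols changed). The brightest kept probe stood for a gene, giving 11030 genes. The 24 h and 0 h arrays were compared gene by gene in limma (lmFit, then eBayes), with no block for replicates. P-values were two-sided and Benjamini-Hochberg adjusted over all genes tested. With 2 arrays a group, SE and intervals come from the fit. The scripts were tested on simulated data.

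A bound for a gene not detected in one condition divides the mean of the bright condition by the dim condition's mean, in which an array's value is raised to its lowest detected signal. The members, the gene lists, the motifs and the rule for named genes (all members, and in each list every called gene and the 2 highest and 2 lowest) were chosen with earlier results of these data known. Alternatives covered background correction, scaling, filters, probe choice, prior, offset, replicate block, the authors' table and leaving out each array.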

Additional observations from a re-analysis of the deposited data

How the results depend on the processing

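Over 14 alternatives for each of the 8 measured genes, directions held except for LIN28A and SOX2. LIN28A stood at 0.041 after scaling to the 75th percentile and at -0.26 to 0.016 with 1 array left out, and SOX2 at -0.27 to 0.034 with 1 array left out, the highest values without 24 h replicate 1 and 24 h replicate 2 respectively. The median change of the core genes was 0.058 to 0.12 with 1 array left out, the highest without 24 h replicate 1, and otherwise 0.050 to 0.088. Of all genes, 251 passed in the main processing (149 higher, 102 lower).

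Counts of all genes, core genes, and genes of the primed, naive, LIN28 and partner lists passing, each 0 in the main processing except the first, were as follows. Without background correction they were 2199, 2, 5, 1, 5 and 7. With the stricter filter, which left 8767 genes tested, they were 1844, 2, 4, 1, 3 and 5. With a trend and robust prior they were 2522, 4, 7, 1, 7 and 10, LIN28B and L1TD1 joining UTF1 and DPPA2. With an offset of 50 they were 1357, 2, 2, 2, 3 and 2. With scaling to the 75th percentile they were 721 (359 higher, 362 lower), 2, 2, 0, 2 and 1. With the authors' deposited log2 table they were 388, 1 (UTF1), 1, 0, 1 and 0. With the mean of the probes the LIN28 list had 1, and all genes 336. The cause of these differences was not tested. No filter (18348 genes tested), the fit over all kept probes and leaving out any 1 array gave 0 genes by limma, with 3456, 5235 probes and 1831 to 3341 at an unadjusted p under 0.05.

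The fit with the replicate number as a block also gave 0 genes (smallest adjusted p 0.07, 3828 at an unadjusted p under 0.05). The labels do not say that equal numbers share a culture, and deviations of equal-numbered arrays correlated at 0.15 across genes, so the pairing was not used. Over all 14 alternatives, those with 1 array left out included, the change of UTF1 ranged from 0.46 to 0.84 and that of DPPA2 from 0.39 to 0.79. Among the genes named from the wider lists, DGCR8 passed under 7 of the 14, DNMT3B under 6, and GDF3 and POU3F1 under 5. In the main processing POU3F1 lay above 0 and the others below it.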
